A study of Oryza sativa Japonica Group with 4 samples.

Results

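The regions described here are the CG hyper-DMRs (regions of higher methylation in M.CviP I treated than in untreated rice DNA) that lay where the untreated DNA was almost free of methylation in every cytosine context. A CG hyper-DMR was a member when its methylation level in CK, the untreated DNA, was below 0.05 and when at least 1 bp of it was shared by a CHG and by a CHH hyper-DMR, each again below 0.05 in CK. This rule was met by 55195 regions, or 47.7% of the 115672 CG hyper-DMRs, out of 1056015 hyper-DMRs of all contexts. The members covered 14.6 Mb, or 3.91% of the chromosome length. Members were thus chosen by their CK levels and by a called gain, so levels and gains in them are a description, and no test was applied to them.

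The study used Nipponbare (Oryza sativa, Japonica) seedlings and sequenced 4 bisulfite (BS-seq) libraries, 1 per condition. For the hyper-DMRs, purified genomic DNA was incubated in vitro with the methyltransferase M.CviP I (8 units for 4 μg of DNA, 640 μM of the methyl donor SAM, 37°C, 1 h), and its CK was DNA without this treatment. Seedlings for it were 2 weeks old per the growth notes. The other 2 libraries came from seedlings given 80 μM zebularine, a methyltransferase inhibitor, and from seedlings given DMSO only. For these, 5-day-old seedlings were treated for 5 days. The enzyme acted on naked DNA and not in cells, and the DNA came from whole seedlings, so cell types are mixed. With 1 library per condition there is no replicate error, and the depth per cytosine is unknown beyond the minimum of 3 reads given in the methods. The deposited lists hold called regions only. Coordinates are those of MSU7.0 as listed, and neither genes nor sequences were assigned to the regions here.

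Plants methylate cytosines in CG, CHG and CHH contexts, where H is A, C or T. CG methylation is copied at replication by MET1, CHG methylation is kept by chromomethylases such as CMT3, and CHH methylation needs renewal by CMT2 or by the RNA-directed pathway with DRM2. In rice, transposons and pericentromeric heterochromatin carry all of these marks, whereas promoters and many active genes lack them. M.CviP I, an enzyme of a Chlorella virus, is known for methylating the cytosine of GpC, although the labels call it a CpG methyltransferase. The paper's results section also calls it a GpC methyltransferase. From dot blots of synthetic oligos holding CG, CHG or CHH only, the paper reports that it appears to act on CHG and CHH as well. A cytosine after G can lie in any of the contexts, and the lists do not say which cytosines of a region follow a G.

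In the members, M.CviP I treated DNA was highly methylated in all contexts, whereas CK DNA was nearly unmethylated. The median CG level was 0.722 in treated DNA and 0.0072 in CK, and the median gain (treated minus CK) was 0.712, with quartiles of 0.604 and 0.811. For each member, the CHG and the CHH level were taken from the unmethylated region of that context with the longest overlap. The median CHG level was 0.773 in treated DNA and 0.0057 in CK, with a median gain of 0.765 and quartiles of 0.659 and 0.859. CHH reached a median of 0.697 in treated DNA, against 0.0088 in CK, and its median gain was 0.687, with quartiles of 0.60 and 0.768. The 5th percentile of the treated level was 0.465 for CG, 0.516 for CHG and 0.480 for CHH, all far above the CK levels, which the rule kept below 0.05. The plot of levels per context shows the treated and CK levels apart from each other in every context.

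**Figure D1:**
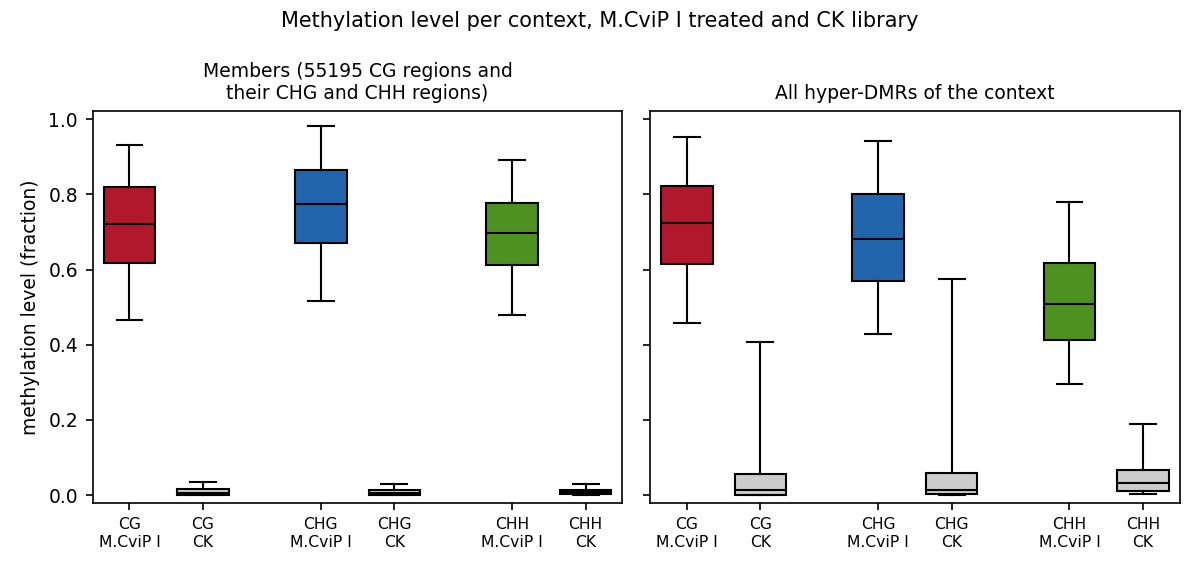
Methylation level (fraction, 0 to 1) in the M.CviP I treated library (coloured) and in CK (grey) for CG, CHG and CHH, in the members on the left and in all hyper-DMRs of each context on the right. Boxes span the quartiles, lines are medians and whiskers the 5th and 95th percentiles over regions. In the members the treated medians lie at 0.722, 0.773 and 0.697, and the treated CHH median over all hyper-DMRs is 0.508.

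Across all hyper-DMRs of a context, whatever their CK level, the median gain was 0.660 for CG, 0.604 for CHG and 0.456 for CHH. Among all hyper-DMRs with a CK level below 0.05, it was 0.723 for CG, 0.670 for CHG and 0.535 for CHH. The CHG and CHH regions at members thus had medians of 0.765 and 0.687, above those of unmethylated CHG and CHH hyper-DMRs in general, while the CG median of members, 0.712, was slightly below that of unmethylated CG hyper-DMRs. A gain of at least 0.5 was found in CG for 50104 members (90.8%), beside 75.3% of all CG hyper-DMRs. In CHG it was found for 52515 members (95.1%), beside 67.8% of all CHG hyper-DMRs. In CHH it was found for 50596 members (91.7%), beside 41.2% of all CHH hyper-DMRs. Because the rule used the same contrast, nothing is read from the distance between these shares.

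In most members the gains were large in every context at once, where the rule required a called gain in each. Of all CG hyper-DMRs, 77.9% shared bases with a CHG and 95.5% with a CHH hyper-DMR. A joint share of large gains was not computed for them, so joint gains are not known to be particular to members. The gain was at least 0.5 in all 3 contexts in 44746 members (81.1%), and in none of them in 192 (0.348%). Gains under 0.2 were rare, with 65 members in CG, 8 in CHG and 24 in CHH. Complete methylation was uncommon as well. A treated level of 1 was listed for 660 members in CG (1.20%), 1626 in CHG (2.95%) and 360 in CHH (0.652%). All 3 treated levels were at least 0.9 in 251 members (0.455%), and all 3 were 1 in 9. At the other end, CK levels of exactly 0 were listed for 21707 members in CG (39.3%), 22367 in CHG (40.5%) and 6829 in CHH (12.4%), and 1920 members (3.48%) were at 0 in every context in CK. The rule itself kept CK levels below 0.05. CHH regions also held more cytosines (median 40, against 12 in CG and 14 in CHG), and levels of 0 were not compared at equal numbers. The shares of levels of 0 or 1 and of gains under 0.2 were not computed over all hyper-DMRs, so they are not known to be particular to members.

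The label of the group, all contexts unmethylated in CK, held for the regions that the rule matched, but a place could hold further regions. A CHG hyper-DMR with a CK level of 0.05 or more also touched 1566 members (2.84%), and such a CHH hyper-DMR touched 5003 (9.06%). Either was present at 5961 members (10.8%). Without these, 49234 members were left, and the median gains were 0.717 in CG, 0.766 in CHG and 0.687 in CHH.

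Members were short, as were all CG hyper-DMRs, and the regions of the contexts did not have the same borders. The CG region had a median length of 245 bp and a median of 12 cytosines, beside 243 bp and 13 cytosines over all CG hyper-DMRs. The matched CHG region had a median of 322 bp and 14 cytosines, and the CHH region 488 bp and 40 cytosines. A median of 155 bp was shared by the CG and CHG regions and 188 bp by the CG and CHH regions. The 3 regions had bases in common in 53017 members (96.1%), with a median of 124 bp. Only 13562 CG regions (24.6%) lay entirely within their CHG region and 21116 (38.3%) within their CHH region, so that a gain per context in the same place refers to overlapping and not to identical stretches. Members also shared partners. The 55195 members were matched with 52442 different CHG regions and 52445 different CHH regions, and 9.93% of members had their CHG region in common with another member and 9.95% their CHH region.

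A typical member lay on chromosome 4 from 21421532 to 21421938, the region whose gains and CK levels were nearest the medians. Its 20 CG cytosines had a level of 0.718 in treated DNA and 0.005 in CK. The matched 21 CHG cytosines were at 0.766 in treated DNA and 0.0052 in CK, and the matched 45 CHH cytosines at 0.707 in treated DNA and 0.0089 in CK. The second nearest, on chromosome 1 from 14321588 to 14321672, held 6 CG cytosines with levels of 0.710 in treated DNA and 0 in CK. The third, on chromosome 4 from 33109613 to 33109632, was only 20 bp long and held 7 CG cytosines, with levels of 0.714 in treated DNA and 0 in CK. All of these showed CHG above CG and CG above CHH in their gains, which is the order of the medians they were chosen by. Among all members this order was found in 25.3%.

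The largest gains were complete changes. On chromosome 7 from 18203636 to 18203828, all of 13 CG, 5 CHG and 5 CHH cytosines had a level of 1 in treated DNA and 0 in CK. The same levels were listed on chromosome 7 from 21726022 to 21726134, with 7 CG, 8 CHG and 5 CHH cytosines, and on chromosome 2 from 35340126 to 35340271, with 7 CG, 5 CHG and 6 CHH cytosines. These regions held few cytosines in each context, and in 5 members in all every context was at 1 in treated DNA and at 0 in CK. An infinite t statistic was listed for 572 members (1.04%) in CG.

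Within members the order of the gains differed from place to place, with CHG most often on top. The rule required a called CHG gain at each of these places. Over all hyper-DMRs with a CK level below 0.05 the medians had the other order, 0.723 in CG and 0.670 in CHG. The excess of CHG is thus a description of members and not of the lists. CHG had the largest gain in 27521 members (49.9%), CG in 15841 (28.7%) and CHH in 11692 (21.2%), with ties in the rest. The most frequent order was CHG, CG, CHH, found in 13987 members (25.3%), closely followed by CHG, CHH, CG in 13525 (24.5%). The order CHH, CG, CHG was the rarest, with 4725 members (8.56%). Within members, the CHG gain exceeded the CG gain in 62.6% of cases, with a median difference of 0.0534 and quartiles of -0.0591 and 0.162. It exceeded the CHH gain in 66.7%, with a median difference of 0.0666 and quartiles of -0.0348 and 0.173. These quartiles span both directions, so the excess of CHG is a shift of broad distributions and not a rule for single places.

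Between CG and CHH, no stable order was seen. The CG gain was above the CHH gain in 54.2% of members, with a median difference of 0.0166. Among the 26986 members with at least 10 cytosines in each of their regions, the CG gain was above the CHH gain in 48.0%, and the median difference was -0.0082. The excess of CHG over CG was kept in these members, with a median difference of 0.0677, and in the 2809 members with at least 20 cytosines in each region it was 0.0767.

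Gains of the contexts went together only loosely. The distance between the largest and the smallest of the gains of a member had a median of 0.189, with 10000 members (18.1%) within 0.1 and 10315 (18.7%) more than 0.3 apart. Pearson's r across members was 0.318 between CG and CHG, 0.304 between CHG and CHH and 0.277 between CG and CHH, over 55195 members. With at least 20 cytosines in each region the values were 0.410, 0.310 and 0.322, over 2809 members. The points of these correlations share the libraries, their depth and the place, and members with a common partner share its value as well. The plot of gains by pair of contexts shows broad clouds around high gains in both contexts.

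**Figure D2:**
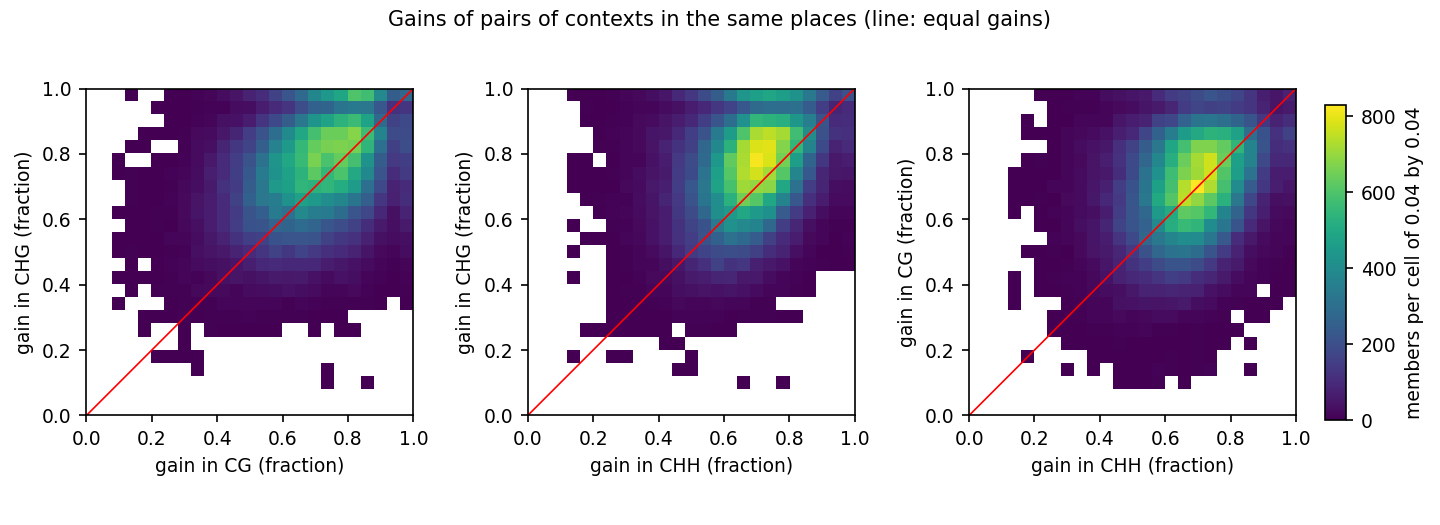
Gain (treated minus CK level, fraction) in CHG against CG, CHG against CHH and CG against CHH for the 55195 members, as counts per cell of 0.04 by 0.04, with a red line at equal gains. More of the cloud lies above the line for CHG against CG (62.6% of members) and CHG against CHH (66.7%) than for CG against CHH (54.2%).

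Contexts disagreed widely in the overlapping regions of single members. Over all members the CG minus CHH gain ran from -0.723 to 0.773, and the places given here are the most extreme of the 26986 members with at least 10 cytosines in each region. On chromosome 1 from 6719775 to 6719993, 10 CG cytosines had a level of 0.963 in treated DNA and 0 in CK, and 10 CHG cytosines were at 0.92 in treated DNA and 0 in CK. The 64 CHH cytosines matched there reached only 0.261 in treated DNA, against 0.0284 in CK, but that CHH region, from 6719958 to 6720456, shared only the end of the CG region. On chromosome 3 from 5274806 to 5275022, 14 CG cytosines were at 0.910 in treated DNA and 0.0071 in CK, while 53 CHH cytosines were at 0.217 in treated DNA and 0.0366 in CK. That CHH region, from 5274456 to 5274931, lay mostly before the CG region. The third of this kind lay on chromosome 3 from 20501988 to 20502065, with gains of 0.915 in CG, 0.643 in CHG and 0.257 in CHH. Its CHH region, from 20501830 to 20502329, reached beyond the CG region on both sides.

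The opposite disagreement occurred too, again ranked among members with at least 10 cytosines in each region. On chromosome 3 from 7706072 to 7706207, 10 CG cytosines reached 0.329 in treated DNA and were at 0 in CK. At nearly the same borders, 14 CHG cytosines were at 0.939 and 11 CHH cytosines at 0.952 in treated DNA, with CK levels of 0. On chromosome 2 from 26681220 to 26681503, the gain was 0.303 over 23 CG cytosines, 0.549 over 16 CHG cytosines and 0.914 over 37 CHH cytosines. The CHH region there, from 26680868 to 26681337, lay mostly before the CG region. On chromosome 11 from 1052374 to 1052607, the CG gain of 0.328 stood beside a CHH gain of 0.924. That CHH region, from 1052475 to 1052620, covered only a part of the CG region.

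Gains also differed with the number and spacing of the cytosines. In members with at least 10 cytosines in each region, the median CG gain was 0.604 in the class with the fewest CG cytosines per 100 bp and 0.759 in the class with the most, where classes hold about 20% of all members each. CHG gains in the same classes were 0.710 and 0.790, whereas CHH gains, 0.675 and 0.691, differed little. Over all members the lowest and highest classes had median CG gains of 0.657 and 0.774. By number of cytosines the relation was not even. Members with exactly 5 CG cytosines had a median CG gain of 0.802, those with 10 to 14 had 0.675 and those with 30 to 67 had 0.774. The list admits a region only with p below 0.01 and a difference of at least 0.1, and its smallest regions hold 5 cytosines. How much the p cutoff adds to the gain of small regions was not tested.

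In contrast, gains in all contexts were lower where more CHH cytosines were counted. With 5 to 19 CHH cytosines in the matched region, 7708 members had median gains of 0.803 in CG, 0.857 in CHG and 0.803 in CHH. With 40 to 49 CHH cytosines, 13549 members had 0.682 in CG, 0.737 in CHG and 0.664 in CHH, and with 60 to 79, 4551 members had 0.650, 0.685 and 0.621 in the same contexts. Per length the order was the same. The 20% of members with the fewest CHH cytosines per 100 bp (median 5.10) had treated levels of 0.799 in CG, 0.849 in CHG and 0.772 in CHH, and the 20% with the most (median 12.1) had 0.673, 0.712 and 0.651. Median CK levels were between 0 and 0.0097 in each density class and context. The number of cytosines counts those with enough reads, so sequence and coverage cannot be told apart here.

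**Figure D3:**
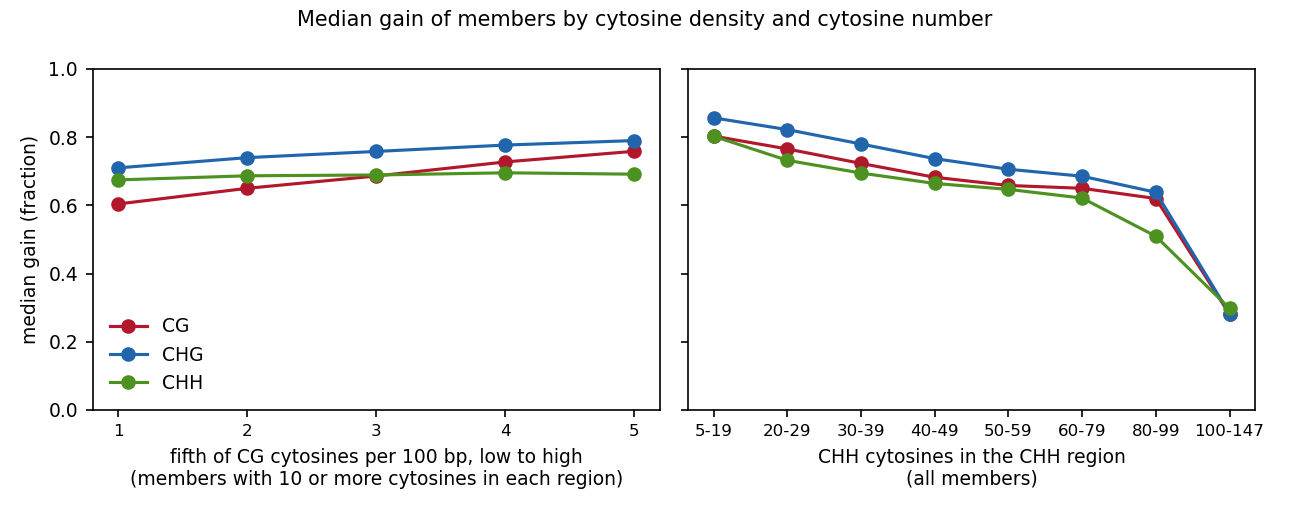
Median gain (fraction) of CG, CHG and CHH by class of CG cytosines per 100 bp (20% of all members each) in members with at least 10 cytosines per region (left), and by the number of CHH cytosines in the matched CHH region in all members (right). CG gain lies at 0.604 in the lowest and 0.759 in the highest class on the left, while on the right all contexts are lower at higher numbers, down to 0.280 in CG in the last class of 14 members.

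The members with the most cytosines stood apart from the rest. The first, on chromosome 9 from 4728995 to 4729492, had 52 CG cytosines at 0.330 in treated DNA and 0.0379 in CK, 58 CHG cytosines at 0.298 in treated DNA and 0.0252 in CK, and 124 CHH cytosines at 0.298 in treated DNA and 0.0046 in CK. The second, on chromosome 1 from 33521028 to 33521525, had gains of 0.211 in CG, 0.283 in CHG and 0.323 in CHH. The third, also on chromosome 1, from 33583613 to 33584079, had gains of 0.233, 0.364 and 0.308 in the same contexts. Of the 14 members with at least 100 CHH cytosines, a class formed after seeing these values, 6 lay on chromosome 9 and 4 on chromosome 1. Their median gains were 0.280 in CG, 0.282 in CHG and 0.297 in CHH, and 13 of the 14 gained less than 0.5 in CHH. The members on chromosomes 2 and 11 were exceptions, with CG gains of 0.696 and 0.729 over 7 CG cytosines each. Those on chromosomes 1, 9 and 12 had CHH gains from 0.198 to 0.323, with CK levels of 0.0038 to 0.0067 in CHH and of 0.0372 to 0.047 in CG.

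Members at the CK threshold did not differ abruptly from regions beyond it. Just inside were 3 members with a CG level of 0.0498 in CK, whose levels in treated DNA were 0.710, 0.751 and 0.838. Just outside were 3 regions at exactly 0.05 in CK that met the CHG and CHH part of the rule, with 0.603, 0.686 and 0.454 in treated DNA. The 552 members with a CG level in CK from 0.045 upwards had a median gain of 0.561, and the 578 regions up to 0.055 had 0.569. In all, 11533 CG hyper-DMRs met the CHG and CHH part of the rule but not the CG part.

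Unmethylated CG hyper-DMRs outside the members were mostly those without an unmethylated CHG region, and these were shorter than members. A further 5534 lacked only an unmethylated CHH region and are left out here. An unmethylated CHG region was missing at 24772 CG hyper-DMRs with a CK level below 0.05. Members had a median length of 245 bp and 12 cytosines, against 150.5 bp and 9 cytosines in these. The median CG gain was 0.712 in members and 0.743 in these, whose median level was 0.752 in treated DNA and 0.0044 in CK. A longer region shares a base with another more easily, so the rule itself favours longer members. The comparison of gains was not made at equal length, so the part of length in it was not tested. The 26778 CG hyper-DMRs with a CK level from 0.05 to below 0.5 had a median length of 384 bp, a level of 0.677 in treated DNA and 0.181 in CK, and a gain of 0.446. No test separates these groups, as each level comes from 1 library.

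Along the genome, members were found on all chromosomes and in every full 1 Mb bin, but at very unequal density. Chromosome 3 had the most members per Mb (208), followed by chromosome 1 (193) and chromosome 2 (181), while chromosome 12 had 99.4 and chromosome 11 had 104. As the length of a chromosome, the largest region end in the lists was used. Members made up between 43.8% (chromosome 12) and 50.8% (chromosome 3) of the CG hyper-DMRs of a chromosome, while CG hyper-DMRs themselves numbered from 227 to 410 per Mb. Gains varied far less than density. The median CG gain lay between 0.707 (chromosome 8) and 0.717 (chromosome 5), the median CHG gain between 0.754 (chromosome 8) and 0.769 (chromosome 2), and the median CHH gain between 0.664 (chromosome 12) and 0.699 (chromosome 1). CHG gains were above CG gains and CG gains above CHH gains by the medians of each of the 12 chromosomes.

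Members were densest in the last sections of the chromosome length and sparsest near the middle, as were all CG hyper-DMRs. In sections of 10% of the chromosome length, the first held 174 members per Mb, the section from 40% to 50% held 79.3 and the last 224. All CG hyper-DMRs numbered 12619, 6549 and 16252 in these sections, and members were 51.5%, 45.2% and 51.4% of them. Chromosomes differed widely within a section, from 62.6 to 297 members per Mb in the first and from 133 to 293 in the last. Over the same sections the median CG gain lay between 0.702 and 0.718, the median CHG gain between 0.757 and 0.772 and the median CHH gain between 0.673 and 0.70. Over these sections the median gains thus varied far less than the density of members. In 1 Mb bins, however, the median CHH gain went with the number of members (Spearman's rho 0.534).

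**Figure D4:**
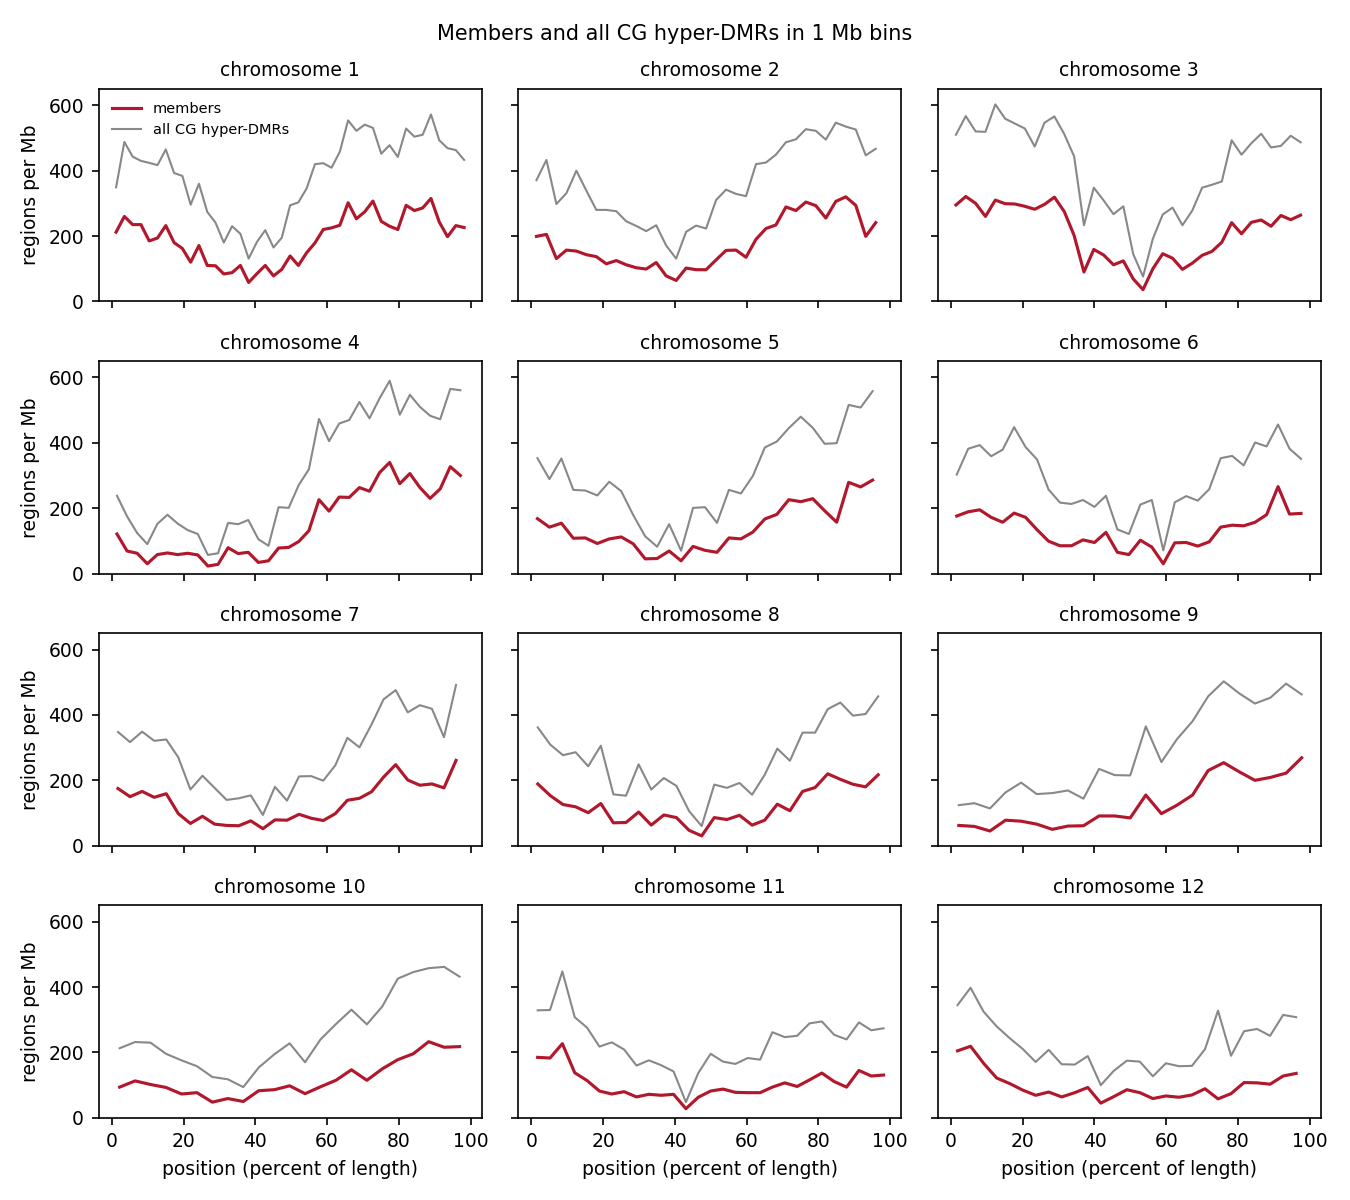
Members (red) and all CG hyper-DMRs (grey) per 1 Mb bin against the position of the bin in percent of the chromosome length, for each of the 12 chromosomes. Members run from 23 to 340 per bin, with troughs in the inner part of most chromosomes and low values over the first part of chromosome 4.

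In 368 full bins of 1 Mb, the median was 126.5 members, with percentiles 10 and 90 of 63 and 263. The fullest 25% of bins held 44.1% of these members and the emptiest 25% held 10.8%. The fullest bin lay on chromosome 4 from 27 to 28 Mb with 340 members, followed by chromosome 4 from 33 to 34 Mb with 327 and chromosome 3 from 1 to 2 Mb with 321. The emptiest lay on chromosome 4 from 9 to 10 Mb with 23 members, and the next were chromosome 4 from 10 to 11 Mb and chromosome 11 from 12 to 13 Mb with 28 each. Even in the emptiest bin the median gains were 0.703 in CG, 0.815 in CHG and 0.735 in CHH, over 23 members.

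Chromosome 4 had both the fullest and the emptiest bin. Its first 18 Mb held 59.3 members per Mb and the rest 250.4 per Mb. The median CG gain was 0.701 in the first 18 Mb and 0.714 in the rest, and the median CHH gain 0.674 in the first 18 Mb and 0.704 in the rest. The limits of these stretches were set with the densities known, and they do not mark chromosome arms. All CG hyper-DMRs were unequal on chromosome 4 too, with 57 in its emptiest bin and 590 in its fullest. They were not counted per stretch here. Across 1 Mb bins members followed them at a Spearman's rho of 0.979, so the contrasts between stretches are not known to be particular to members. On chromosome 10, the first 13 Mb held 80.8 members per Mb and the rest 168. The first 2 Mb of chromosomes 11 and 12, which are known as a duplicated segment, held 184 and 212 members per Mb, against 97.9 and 90.6 in the rest of each. The first 2 Mb of the other 10 chromosomes held from 60.5 to 308 members per Mb, a range that includes both values. Levels rest on uniquely mapped reads, and how this touches duplicated segments was not tested.

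**Figure D5:**
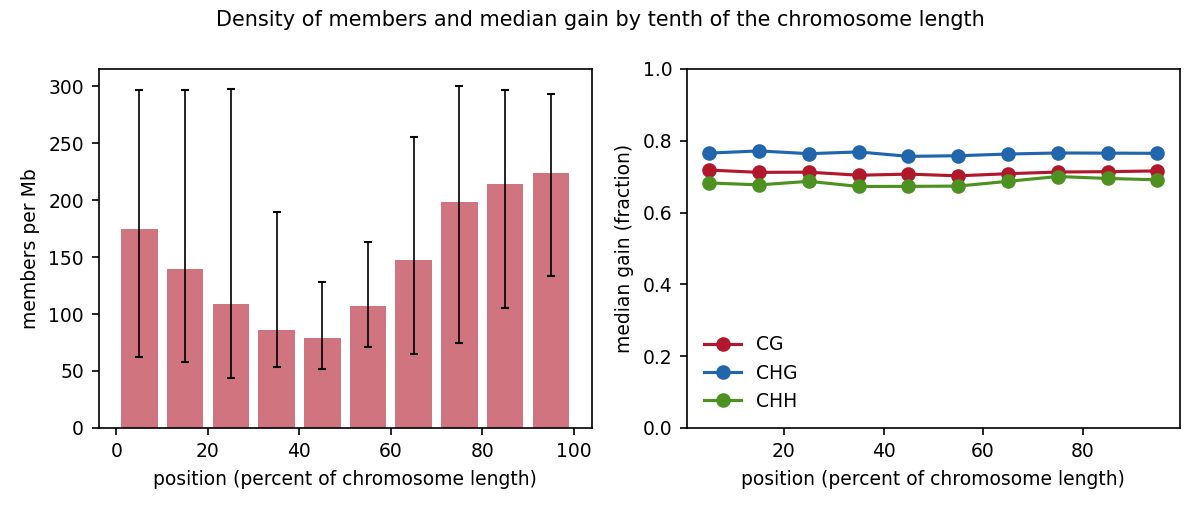
Members per Mb by section of 10% of the chromosome length (left; bars are all 12 chromosomes together and lines the range between single chromosomes) and median gain (fraction) of CG, CHG and CHH in the same sections (right). Density is lowest between 40% and 50% at 79.3 members per Mb, while the median gains stay between 0.673 and 0.772.

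Across the 368 bins, Spearman's rho between the number of members and the number of all CG hyper-DMRs was 0.979, and 0.919 with CHG hyper-DMRs. With CHH hyper-DMRs, which numbered between 1150 and 1894 per bin, it was -0.288. The number of members as a share of the CG hyper-DMRs of a bin had a 10th percentile of 38.8% and a 90th of 55.0%. With the median gain of a bin, rho was 0.229 for CG, 0.161 for CHG and 0.534 for CHH, so that CHH gains were somewhat higher where members were dense. These bins share the libraries and base composition along the chromosome, and the values are a description.

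Many members lay close to another member. No listed region was much longer than 500 bp and those of a context did not overlap, so a longer gained stretch could be listed as neighbouring regions. How much this adds to the closeness of members was not tested. The spacing of all CG hyper-DMRs was not computed, so grouping is not known to be particular to members. The distance between neighbouring members had a median of 2637 bp, and 23.3% of the 55183 pairs of neighbours were less than 500 bp apart. At this distance 22588 members (40.9%) belonged to groups of 2 or more. The longest group held 8 members on chromosome 1 from 29135907 to 29139382, with CG levels from 0.545 to 0.869 in treated DNA and from 0 to 0.0326 in CK, and gains of 0.529 to 0.869 in CG, 0.581 to 0.831 in CHG and 0.611 to 0.841 in CHH. The longest stretch without a member spanned 534141 bp on chromosome 6, from 18271098 to 18805238, and held 1 CG hyper-DMR. Pearson's r of the CG gain between neighbours less than 500 bp apart was 0.104 over 12854 pairs, and 0.0198 over 19101 pairs more than 5000 bp apart. For neighbours less than 500 bp apart that were matched with different regions, r was 0.0885 for CHG over 10101 pairs and 0.122 for CHH over 10104 pairs. For neighbours more than 5000 bp apart it was 0.0160 for CHG and 0.00999 for CHH. In every context r was thus low, but higher for close neighbours than for distant ones.

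The zebularine experiment used other libraries, but its readout was not free of the rule. A hypo-DMR (a region of lower methylation in zebularine-treated than in DMSO-treated seedlings) needs a loss of at least 0.1 and thus a DMSO level of at least 0.1, whereas members were chosen below 0.05 in untreated DNA. A low share of members with a hypo-DMR was therefore made likely in advance by the selection, though not fixed by it. The shares are given as a description. A CG hypo-DMR shared at least 1 bp with 200 members, or 0.362% (95% Wilson interval 0.316% to 0.416%), beside 2.14% of all CG hyper-DMRs. For CHG hypo-DMRs it was 26 members, or 0.0471% (0.0321% to 0.0690%), beside 0.0865%, and for CHH hypo-DMRs 100 members, or 0.181% (0.149% to 0.220%), beside 0.339%. The intervals cover counting error only and treat regions as independent, which neighbours are not. Among CG hyper-DMRs with a CK level from 0.05 to below 0.5, the share with a CG hypo-DMR was 5.09%, and among the 3393 with a CK level of 0.5 or more it was 23.6%, so the share followed the CK level. Among unmethylated CG hyper-DMRs without an unmethylated CHG region it was 0.379% (0.310% to 0.464%), an interval that overlaps that of members.

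At the 200 members that touched a CG hypo-DMR, the hypo-DMR had a median level of 0.0180 in zebularine-treated and 0.178 in DMSO-treated seedlings, and in 67 of them the level in DMSO-treated seedlings was at least 0.5. The shared part was a median of 27.2% of the member, and 45 members lay by 0.5 or more of their length under CG hypo-DMRs. In these the median level was 0.0083 in zebularine-treated and 0.145 in DMSO-treated seedlings, and 5 had at least 0.5 in DMSO-treated seedlings. Such a place was chromosome 7 from 7603265 to 7603384, with 0.541 in M.CviP I treated DNA and 0.0125 in its CK over 8 CG cytosines. The CG hypo-DMR there, from 7602889 to 7603337, had 0.686 in zebularine-treated and 0.860 in DMSO-treated seedlings over 54 CG cytosines, and reached beyond the member on one side. This place was picked after its values were seen, as the one with the highest DMSO level of the 45.

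The density of CG hypo-DMRs along the chromosomes ran opposite to that of members. Over the 368 bins, Spearman's rho between their numbers was -0.906. Members followed all CG hyper-DMRs at a rho of 0.979, and whether the opposition is particular to members was not tested. A hypo-DMR needs a DMSO level of at least 0.1 and a member a CK level below 0.05, so the selections were not independent. The bin on chromosome 4 from 9 to 10 Mb held 23 members, 57 CG hyper-DMRs and 851 CG hypo-DMRs. That from 27 to 28 Mb held 340 members, 590 CG hyper-DMRs and 313 CG hypo-DMRs. The bins share base composition and mapping, and the value is a description over 2 pairs of libraries.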

How the data were processed

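BS-seq was done on 1 library per condition, and the 2 lists of DMRs were used as deposited. Per the methods, adapters were removed (Fastp), Bismark aligned the reads to MSU7.0, only unique alignments and positions with at least 3 reads were used, and the authors called regions with CGmapTools at p below 0.01 and a difference of at least 0.1. The deposited methylation level of a region is a fraction between 0 and 1. The deposited p-value is unadjusted, the deposited t statistic was read as a score, and neither carries replicate error. The deposited count is the number of cytosines per region, not of reads. The lists have no header, and the treated and CK columns were told apart by the direction each list is named for.

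Members, overlaps of at least 1 bp, medians, quartiles, Wilson intervals and 1 Mb bins were computed with Python 3.11.15, numpy 2.4.6, pandas 2.3.3 and scipy 1.17.1, and figures with matplotlib 3.10.9. The member search was tested on simulated data. Regions of a context do not overlap each other. No test of the treatment was possible, since each condition had 1 library. The members and lists were chosen with earlier results of these data known. Named regions were those with the largest smallest gain, the most cytosines, values nearest the medians, the largest differences between CG and CHH gains (among members with at least 10 cytosines in each region), the CK level nearest the threshold, and the fullest and emptiest bins, with the first 3 of each. Alternatives were other CK cutoffs, an overlap of 0.5 of the region, stricter p-value, difference and cytosine minimums, weighted means, means in place of medians, merging and smaller bins. GpC content was not analysed here, as no genome of this build was used.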

Additional observations from a re-analysis of the deposited data

How the results depend on the processing

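Of 53 comparisons with an alternative, 17 stayed within the 95% interval over regions (for numbers of regions, within 1.5 times) and 36 moved, where any change of the covered length or the bin ratio counted as moved. The sign of a gain is fixed by the list. A CK level below 0.02 left 36410 members on 2.61% of the length, with median gains of 0.729 in CG, 0.778 in CHG and 0.699 in CHH. A CK level below 0.1 gave 4.46% of the length and 0.701, 0.756 and 0.676. At least 10 cytosines per region left 28206 members on 2.49%, with 0.689 in CG and 0.756 in CHG. With p below 0.001 the share was 3.11% and the gains 0.745, 0.793 and 0.703. An overlap of 0.5 of the region gave 2.64%, with 0.758 in CHG and 0.690 in CHH. A difference of at least 0.2 gave 3.90%. Without other CHG or CHH regions of CK level 0.05 or more it was 3.34%, with 0.717 in CG. Means over members were 0.703, 0.754 and 0.682. Members with at least 10 cytosines in their regions had 0.688 in CG and 0.756 in CHG. Weighting by shared bp gave 0.684 in CHH. In each of these settings the median CHG gain of members was above their CG gain, which was not so over all hyper-DMRs.

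CHG had the largest gain in 50.5% of members with weighted means and in 51.7% with at least 10 cytosines. The ratio of the 90th to the 10th percentile of bins was 4.18, 4.47 with 500 kb bins, and 1.42 for members as a share of CG hyper-DMRs. With 0.5 of a member under hypo-DMRs, 0.0815% of members met a CG, 0.0163% a CHG and 0.0743% a CHH hypo-DMR. Except for fewer or more regions by construction, the cause was not tested. No paired analysis was possible because there was 1 library per condition. Leaving out the members that touch a hypo-DMR, an alternative chosen after seeing the data, removed too few regions to move a median and says nothing about stability. GpC content and its alternative were not run, and a coverage minimum could not be varied because the lists hold no depth.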
